A study of Homo sapiens with 8 samples.

Results

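Proteoglycan genes were followed in SRA01/04, a human line derived from lens epithelium and transformed with a viral large T antigen. The 10 genes were taken by name from the 58735 genes of a count table: LUM, DCN, BGN and FMOD, which encode small leucine-rich proteoglycans, VCAN, the basement membrane genes HSPG2 and AGRN, and the cell-surface genes SDC1, SDC4 and GPC1. Cells labelled shSmurf1, with the genotype Smurf1 knockdown from a short hairpin RNA, were compared with cells labelled shControl, whose genotype is given as WT (4 libraries each). Cells of both groups received recombinant human TGF-β2 at 20 ng/ml for 48 h, and no library without TGF-β2 was analysed here. The labels name neither a second hairpin nor a rescue, so effects of SMURF1 cannot be told apart from anything else that distinguishes the shSmurf1 cells. Titles mark each library as a biological replicate but do not say whether its cells were cultured apart from the others, so the p-values refer to the spread among these 8 libraries.

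A proteoglycan is a core protein that carries long sulfated sugar chains, mainly chondroitin, dermatan, keratan or heparan sulfate. The small leucine-rich members bind collagen fibrils, and some of them, such as decorin and biglycan, also bind TGF-β itself. Versican binds hyaluronan, perlecan and agrin belong to basement membranes such as the lens capsule, and syndecans and glypicans hold heparan sulfate at the cell surface, where it binds growth factors.

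Library totals ranged from 14688651 to 16789144 counts in shSmurf1 and from 15000813 to 17030394 in shControl. SMURF1, the gene targeted by the hairpin, averaged 51.1 ± 0.491 CPM (counts over the TMM-scaled library total) in shSmurf1 and 88.9 ± 3.17 CPM in shControl (mean ± SD, n = 4 each). Its log2 fold change was −0.80 ± 0.055 (SE, edgeR quasi-likelihood test, Benjamini-Hochberg adjusted p = 2.86e-09). Of 12 lens epithelium markers 5 were expressed well enough to be tested, PAX6 and SIX3 among them, and 0 were higher and 2 lower, with summed levels of 653 to 703 CPM in shSmurf1 and 712 to 725 CPM in shControl, while FOXE3, SOX2, MAF, CRYAA and CDH1 had at most 10 counts over the 8 libraries together. Markers of fibroblasts and keratocytes had summed levels of 1950 to 2670 CPM in shSmurf1 and 2470 to 2700 CPM in shControl. Most of that sum came from COL1A1, which averaged 1884 CPM in shSmurf1 and 2001 CPM in shControl. KERA, ALDH3A1 and DCN of that list had at most 22 counts in a group. Of the 11 fibroblast and keratocyte markers, which include LUM and DCN, 8 were tested, and 3 were higher, LUM among them, and 1 lower. Summed immune markers lay at 12.3 to 15.9 CPM in shSmurf1 and 7.08 to 9.46 CPM in shControl. Of these 8 markers 2 were tested and 1 was called (CD14, higher), and 3 were at 0 in all libraries. Among all genes tested, 10.3% were called higher and 12.2% lower. The part of other cell types in the results below was not tested. Libraries also differed in how genes of high GC content were counted. Genes with over 65% GC in their exons lay on average 0.151 to 0.216 above their own mean (log2 CPM) in shSmurf1 replicates 1, 2 and 4, but at −0.247 in shSmurf1 replicate 3, and between −0.134 and −0.00738 in shControl. The exons of HSPG2, AGRN, SDC1, GPC1 and BGN hold 60.3 to 66.4% GC, against 36.5% in LUM, 43.6% in VCAN and 48.8% in SDC4, so the results of the GC-rich genes are given with and without that library.

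Of the 10 genes, 8 had counts high enough to be tested. LUM and AGRN were higher and VCAN and SDC4 lower in shSmurf1 at an adjusted p under 0.05, while BGN, HSPG2, SDC1 and GPC1 did not pass. Of all 15647 genes tested, 22.5% were called, 10.3% as higher and 12.2% as lower. The libraries of the groups did not overlap for LUM, VCAN and SDC4, a pattern found in 23.7% of all genes tested. DCN and FMOD lay at or near the detection floor and were not tested. LUM also lay near the floor in shControl, with 18 counts over that group against 135 in shSmurf1. In such bulk libraries, fewer cells expressing a gene and less RNA per cell cannot be told apart.

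**Figure D1:**
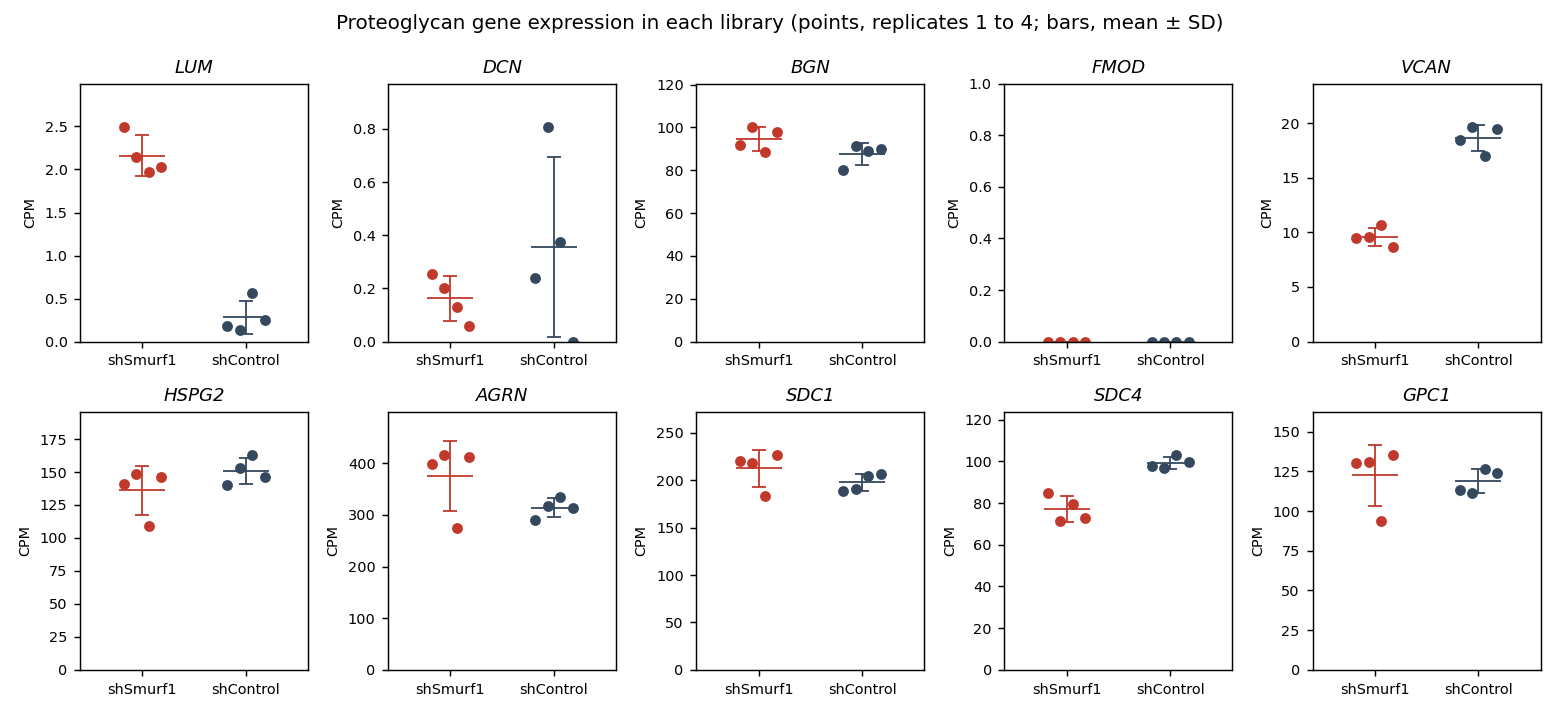
CPM of each of the 10 proteoglycan genes (y axis, from 0, own scale per panel) in the 4 shSmurf1 and 4 shControl libraries, with replicates 1 to 4 from left to right within a group and bars at the mean ± SD. LUM lies higher and VCAN and SDC4 lie lower in every shSmurf1 library, AGRN, GPC1 and HSPG2 have their lowest shSmurf1 value in replicate 3, and FMOD is at 0 throughout.

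LUM encodes lumican, a keratan sulfate proteoglycan that sets collagen fibril spacing in the cornea (ENSG00000139329, GRCh38 chromosome 12, 91102629 to 91111831, minus strand). It had 39, 32, 30 and 34 counts in shSmurf1 libraries 1 to 4, or 2.50, 2.15, 1.97 and 2.03 CPM. In shControl libraries 1 to 4 it had 3, 2, 9 and 4 counts, or 0.179, 0.135, 0.560 and 0.252 CPM. Every shSmurf1 library lay above every shControl library, although LUM was rare in all of them, and 3 counts of a library correspond to 0.179 to 0.202 CPM. The log2 fold change was 2.90 ± 0.37 (SE, edgeR adjusted p = 1.12e-05), rank 10 by size among the 3527 genes called. The ratio of the summed CPM was 7.62, with an interval of 4.64 to 13.3 that covers counting error only (95%, exact binomial). LUM entered the test only through its shSmurf1 libraries, since its shControl counts all lay under 10.

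DCN, the gene of decorin, a dermatan sulfate proteoglycan that coats collagen fibrils, lies beside LUM on the same strand (GRCh38 chromosome 12, 91140484 to 91183123). It had 4, 3, 2 and 1 counts in shSmurf1 libraries 1 to 4 and 4, 12, 6 and 0 counts in shControl libraries 1 to 4. The values overlapped, and the 10 against 22 counts gave a ratio of 0.462 with a counting interval of 0.195 to 1.02. KERA and EPYC, the other small leucine-rich genes of this stretch of chromosome 12, had 1 count each in shSmurf1 and 0 in shControl, so LUM was the only gene of the stretch with more than 22 counts in a group. The 50 expressed genes nearest to LUM along the chromosome had a median log2 fold change of −0.0523, with 3 called higher and 8 lower, beside 10.3% higher and 12.2% lower among all genes tested. FMOD, the gene of fibromodulin, a keratan sulfate proteoglycan of tendon and cartilage (GRCh38 chromosome 1, 203340628 to 203351758, minus strand), had 0 counts in all 8 libraries. A count of 0 allows up to 0.048 CPM over the shSmurf1 group and 0.0472 CPM over the shControl group (3 counts per group).

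BGN, the gene of biglycan, was the only small leucine-rich gene of the 4 with more than 135 counts in a group (ENSG00000182492, GRCh38 chromosome X, 153494939 to 153509554, plus strand). It had 91.8, 100, 88.4 and 98.0 CPM in shSmurf1 libraries 1 to 4, and 80.3, 91.3, 89.0 and 89.8 CPM in shControl libraries 1 to 4. The groups overlapped and the difference did not pass (log2 fold change 0.11 ± 0.060, edgeR adjusted p = 0.196). Without shSmurf1 replicate 3 it passed at 0.15 (adjusted p = 0.0253), whereas with the GC trend of every library also removed it lay at −0.0061 (adjusted p = 0.945).

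VCAN, the gene of versican, the large chondroitin sulfate proteoglycan that binds hyaluronan, fell by about 1 log2 unit (ENSG00000038427, GRCh38 chromosome 5, 83471465 to 83582303, plus strand). It had 9.48, 9.54, 10.7 and 8.64 CPM in shSmurf1 libraries 1 to 4, from 142 to 162 counts per library. In shControl libraries 1 to 4 it had 18.5, 19.7, 17 and 19.4 CPM, from 273 to 310 counts. The highest shSmurf1 library lay well under the lowest shControl library. VCAN reached 51.4% of its shControl level (log2 fold change −0.96 ± 0.10, edgeR adjusted p = 8.65e-07), against a median of −0.0716 for its 50 nearest expressed genes. VCAN-AS1, an antisense gene that shares 453 exonic bases with VCAN, averaged 0 counts per library in shSmurf1 and 0.5 in shControl.

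The 2 basement membrane genes lay on opposite sides of 0. AGRN, the gene of agrin, which clusters acetylcholine receptors at the neuromuscular junction and is a major heparan sulfate proteoglycan of basement membranes, was called higher (ENSG00000188157, GRCh38 chromosome 1, 1020123 to 1056118, plus strand). It had 399, 416, 276 and 411 CPM in shSmurf1 libraries 1 to 4, and 290, 318, 334 and 314 CPM in shControl libraries 1 to 4. Replicate 3 of shSmurf1 was the lowest of all 8 libraries and the other 3 shSmurf1 libraries the highest. The log2 fold change was 0.26 ± 0.091 (edgeR adjusted p = 0.0474), close to the threshold. Without shSmurf1 replicate 3 it was 0.38 ± 0.040 (adjusted p = 1.01e-08), and with each library's GC trend removed it was 0.11 ± 0.042 (adjusted p = 0.0593). With both changes AGRN was called higher at 0.15 ± 0.036 (adjusted p = 0.00216). Leaving out any other single library ended the call (adjusted p from 0.0625 to 0.168), as did DESeq2, limma-voom and the replicate number as a block (0.187, 0.0758 and 0.0646).

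AGRN lies near the end of the short arm of chromosome 1, and the 41 expressed genes nearest to it had a median log2 fold change of 0.20, with 15 called higher and 0 lower. Among all genes tested 10.3% were higher and 12.2% lower. With the GC trend removed the median of the 41 was 0.0736, with 13 higher and 1 lower, beside 2083 higher and 2371 lower of all 15647 genes tested. In the fit to all libraries without that removal, AGRN lay 0.0592 above the median of the 41 neighbours, but just under the median of the nearest 20, which was 0.265. Without shSmurf1 replicate 3 the 41 neighbours had a median of 0.235, against 0.38 for AGRN. The neighbours hold 60.2% GC on average, and the part of position and of GC content in the AGRN value was not tested further.

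HSPG2, the gene of perlecan, the large heparan sulfate proteoglycan that carries laminin-like and immunoglobulin-like domains, had 141, 149, 109 and 146 CPM in shSmurf1 libraries 1 to 4 (ENSG00000142798, GRCh38 chromosome 1, 21822245 to 21937297, minus strand). In shControl libraries 1 to 4 it had 140, 153, 163 and 147 CPM. The groups overlapped, with shSmurf1 replicate 3 again the lowest of all libraries, and the difference did not pass (log2 fold change −0.15 ± 0.078, edgeR adjusted p = 0.202). Without shSmurf1 replicate 3 it lay at −0.05 ± 0.046 (adjusted p = 0.441). It passed as lower when the GC trend was taken out of every library, at −0.26 ± 0.044 with all libraries (adjusted p = 3.21e-05) and at −0.24 ± 0.043 without shSmurf1 replicate 3 (adjusted p = 6.28e-05). The 50 expressed genes nearest to HSPG2 had a median of −0.105, and of −0.102 with the GC trend removed. LDLRAD2, which shares 2121 exonic bases with HSPG2 on the opposite strand, averaged 1.75 counts per library in shSmurf1 and 1 in shControl.

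Because AGRN and HSPG2 are both long GC-rich transcripts, their ratio within each library was also taken, a choice made after the values were seen. The ratio of AGRN to HSPG2, each as counts per kb of exon, was 4.77, 4.71, 4.26 and 4.74 in shSmurf1 libraries 1 to 4. It was 3.49, 3.50, 3.45 and 3.60 in shControl libraries 1 to 4. Library scaling cancels in this ratio, and its groups did not overlap even with shSmurf1 replicate 3 included (4.62 ± 0.241 in shSmurf1 and 3.51 ± 0.0629 in shControl, SD, n = 4 each). As the pair was picked for its difference, no test is given.

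**Figure D2:**
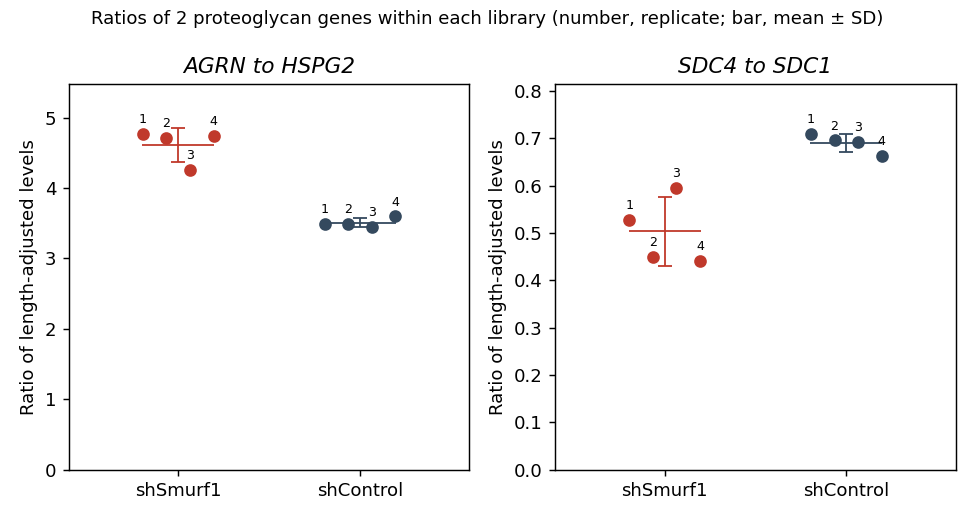
Ratio of length-adjusted levels (y axis, from 0) of AGRN to HSPG2 on the left and of SDC4 to SDC1 on the right, in each shSmurf1 and shControl library, with replicate numbers beside the points and bars at the mean ± SD. The AGRN to HSPG2 ratio lies from 4.26 to 4.77 in shSmurf1 and from 3.45 to 3.60 in shControl, and the SDC4 to SDC1 ratio from 0.441 to 0.596 in shSmurf1 and from 0.663 to 0.709 in shControl.

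SDC4 and SDC1 encode 2 of the 4 syndecans, transmembrane heparan sulfate proteoglycans. Syndecan-4 sits in focal adhesions, where its cytoplasmic tail binds protein kinase C alpha, and syndecan-1 is the main syndecan of epithelia. The stretches of 250 bases before their start sites are shown because SDC4 was called lower and its paralog SDC1 was not, a difference between genes that was not itself tested. They are RefSeq sequences of GRCh38.p14, minus strand, chr20:45348425-45348674 for SDC4 and chr2:20225476-20225725 for the SDC1 start site nearest to the GENCODE gene start, in lower case with motif matches in capitals.

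SDC4: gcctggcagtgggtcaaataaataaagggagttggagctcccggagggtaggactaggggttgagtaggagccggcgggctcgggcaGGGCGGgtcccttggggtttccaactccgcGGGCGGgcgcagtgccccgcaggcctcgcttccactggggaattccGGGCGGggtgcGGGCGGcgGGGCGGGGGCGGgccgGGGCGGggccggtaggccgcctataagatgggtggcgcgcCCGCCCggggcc
SDC1: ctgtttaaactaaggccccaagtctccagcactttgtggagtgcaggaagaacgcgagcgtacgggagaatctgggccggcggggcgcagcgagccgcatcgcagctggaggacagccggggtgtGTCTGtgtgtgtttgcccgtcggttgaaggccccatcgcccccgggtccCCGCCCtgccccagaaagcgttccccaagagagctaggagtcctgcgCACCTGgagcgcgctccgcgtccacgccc

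Searched on both strands were the SMAD core CAGAC, the AP-1 site TGANTCA, the TEAD site GGAATG, the hypoxia response core ACGTG, the ZEB and SNAI site CACCTG, the GC box GGGCGG and the TATA box TATAAA, and no printed match of one motif overlaps another motif. The SDC4 stretch held 8 GC boxes and no match to the other 6 motifs. The printed SDC1 stretch held 1 GC box, 1 SMAD core and 1 ZEB and SNAI site. The stretch of another SDC1 start site, chr2:20225131-20225380, held 1 GC box and no match to the other 6 motifs. HSPG2, BGN and GPC1, which were not called, held 8, 5 and 4 GC boxes. VCAN, which was called lower, held 1, and FMOD, which was not tested, held 2. Of 35116 RefSeq stretches of the same length, 42.6% held a GC box, 38.0% a SMAD core, 17.5% a ZEB and SNAI site, 6.6% an AP-1 site, 11.9% a TEAD site, 18.5% the hypoxia core and 10.7% a TATA box. Such matches describe the letters only. The table held an upstream stretch for 7 of the 10 genes, and LUM, DCN and AGRN were not among them.

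SDC4 was lower in shSmurf1 (ENSG00000124145, GRCh38 chromosome 20, 45325288 to 45348424, minus strand). It had 84.7, 71.4, 79.7 and 72.7 CPM in shSmurf1 libraries 1 to 4, and 97.6, 96.6, 103 and 99.5 CPM in shControl libraries 1 to 4. All shSmurf1 libraries lay under all shControl libraries, at 77.8% of the shControl mean (log2 fold change −0.36 ± 0.060, edgeR adjusted p = 0.00018). SDC1 had 221, 219, 184 and 227 CPM in shSmurf1 libraries 1 to 4, and 189, 191, 205 and 206 CPM in shControl libraries 1 to 4 (ENSG00000115884, GRCh38 chromosome 2, 20200797 to 20225433, minus strand). Its groups overlapped through shSmurf1 replicate 3 and it did not pass (0.10 ± 0.061, adjusted p = 0.252). Without that replicate SDC1 passed as higher at 0.17 (adjusted p = 0.00156), and at 0.029 it did not once the GC trend was removed as well (adjusted p = 0.621).

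The ratio of SDC4 to SDC1 per kb of exon was 0.528, 0.449, 0.596 and 0.441 in shSmurf1 libraries 1 to 4, and 0.709, 0.695, 0.692 and 0.663 in shControl libraries 1 to 4. The groups did not overlap in this ratio, which was also chosen after its values were seen. The exons of SDC4 hold 48.8% GC and those of SDC1 60.3%, so the GC trend of each library does not cancel in it. With the GC trend removed, the log2 fold change was −0.34 for SDC4 and 0.02 for SDC1. The part of GC content in the ratio was not tested. Of the other syndecans, named after their values were seen, SDC2 was lower (75.4 CPM in shSmurf1 and 93.3 CPM in shControl, log2 fold change −0.31 ± 0.057, edgeR adjusted p = 0.000479) and SDC3 did not pass (−0.08 ± 0.056, adjusted p = 0.368). Among the genes fixed as syndecan and agrin partners, PRKCA, the gene of protein kinase C alpha, was higher (0.20 ± 0.048), and SDCBP, the gene of syntenin, which binds syndecan tails, did not pass (0.03 ± 0.067, named after its values were seen).

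GPC1, the gene of glypican-1, a heparan sulfate proteoglycan anchored in the membrane by a lipid, had 130, 131, 93.9 and 135 CPM in shSmurf1 libraries 1 to 4 (ENSG00000063660, GRCh38 chromosome 2, 240435671 to 240468078, plus strand). In shControl libraries 1 to 4 it had 113, 112, 127 and 124 CPM. Replicate 3 of shSmurf1 lay under all shControl libraries and the other 3 shSmurf1 libraries above them. The difference did not pass (log2 fold change 0.04 ± 0.086, edgeR adjusted p = 0.770). Its direction depended on the treatment of that library and of GC content, at 0.15 ± 0.047 without shSmurf1 replicate 3 (adjusted p = 0.0118) and −0.09 ± 0.043 with the GC trend removed (adjusted p = 0.127).

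**Figure D3:**
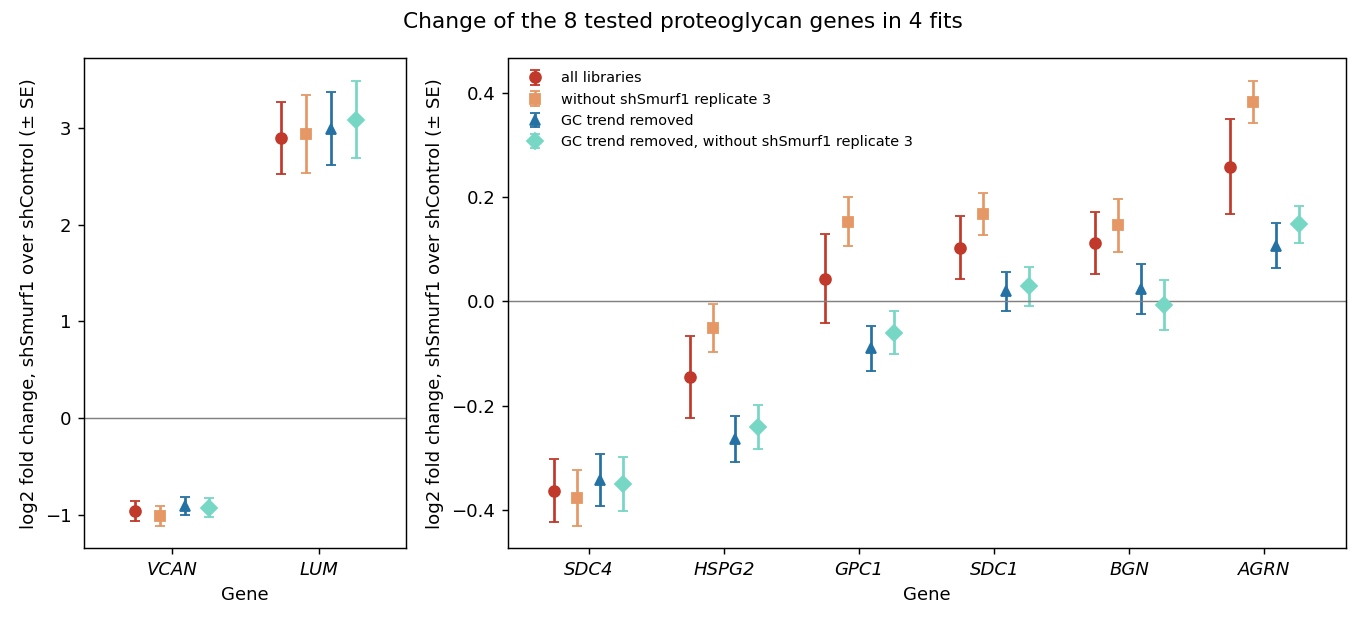
Log2 fold change of shSmurf1 over shControl (y axis, ± SE) for the 8 tested genes in 4 fits: all libraries, without shSmurf1 replicate 3, with the GC trend removed library by library, and with both changes. LUM stays near 3, VCAN near −1 and SDC4 near −0.4 in all 4 fits, HSPG2 runs from −0.26 to −0.05, AGRN from 0.11 to 0.38, and GPC1 and BGN change sign.

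Corrected for exon length, the 10 genes covered a wide range of levels, given here as counts per kb of exon scaled to the same total in each library. SDC1 was highest, at 224 ± 24.6 in shSmurf1 and 214 ± 12.3 in shControl (SD, n = 4 each). In shSmurf1 it was followed by BGN (146 ± 11.8), AGRN (133 ± 26.1) and SDC4 (112 ± 7.95), of which neighbours in this order did not differ beyond the spread of AGRN. In shControl, SDC4 (147 ± 6.46) and BGN (139 ± 9.82) did not differ beyond their spread, and AGRN followed at 113 ± 8.61. GPC1 lay at 71.3 ± 12.5 in shSmurf1 and 70.8 ± 5.46 in shControl, and HSPG2 at 28.5 ± 4.45 in shSmurf1 and 32.3 ± 2.72 in shControl. VCAN and LUM lay at similar levels in shSmurf1, 2.44 ± 0.174 and 2.72 ± 0.323, but far apart in shControl, 4.87 ± 0.291 and 0.366 ± 0.256. The order depended on the length used. With that of the longest transcript, AGRN (146), BGN (113), GPC1 (94.6) and SDC4 (84.4) followed SDC1 in shSmurf1, and VCAN (2.17) lay above LUM (2.06). In shControl the order by longest transcript was AGRN (123), SDC4 (110), BGN (106) and GPC1 (92.7). The sum over the 10 genes was 720 ± 76.8 in shSmurf1 and 721 ± 41.5 in shControl on the scale of all exons. Of that sum, SDC4 made up 15.7 ± 2.21% in shSmurf1 and 20.4 ± 0.531% in shControl, and AGRN 18.3 ± 1.87% in shSmurf1 and 15.7 ± 0.416% in shControl.

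**Figure D4:**
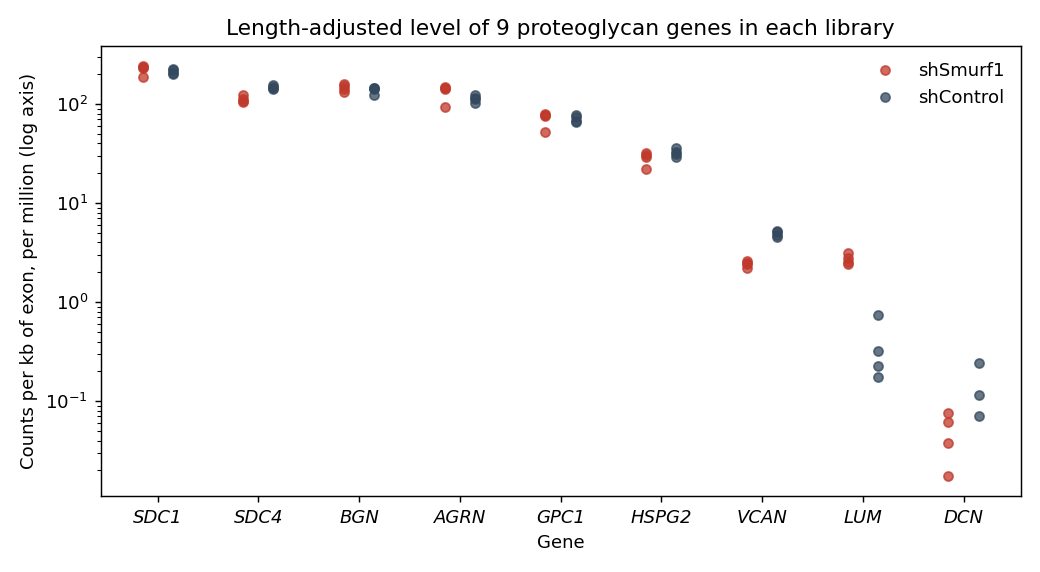
Length-adjusted level (counts per kb of exon, scaled to the same total in each library, log axis) of 9 proteoglycan genes, ordered by their mean in shControl, with 1 point per library for shSmurf1 and shControl. SDC1, SDC4, BGN and AGRN lie above 90, LUM and VCAN lie between 0.1 and 10, and DCN lies under 1. FMOD and the shControl library without a DCN count, all at 0, cannot be drawn on this axis.

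Genes that work with these core proteins were taken from lists of related genes. Of 38 further genes listed as core proteins 22 were tested, and 5 were higher and 6 lower, or 50% called against 22.5% of all genes tested. That list was broad, and the share includes BCAM, a cell adhesion protein called higher (0.32 ± 0.082), which is not a proteoglycan. SMOC1, called lower, is likewise only a relative of proteoglycans. BCAM was named after its values were seen. SMOC1, a secreted protein related to the testican proteoglycans, fell most, with 9.66 ± 0.956 CPM in shSmurf1 and 34.6 ± 2.61 CPM in shControl (log2 fold change −1.84 ± 0.094, edgeR adjusted p = 4.21e-11). SPOCK1, the gene of a testican, was higher (759 CPM in shSmurf1 and 630 CPM in shControl, 0.27 ± 0.050, edgeR adjusted p = 0.000507). TSKU and ESM1 were also higher (0.34 ± 0.072 and 0.34 ± 0.081), and SRGN was lower (−0.34 ± 0.069). SPOCK1, TSKU, ESM1 and SRGN were named after their values were seen. TGFBR3, the gene of betaglycan, a proteoglycan that presents TGF-β2 to its receptors, was lower (7.68 ± 1.41 CPM in shSmurf1 and 10.8 ± 1.10 CPM in shControl, −0.49 ± 0.13, adjusted p = 0.0115). GPC6, another expressed glypican, was higher (51.3 ± 4.22 CPM in shSmurf1 and 38.5 ± 0.573 CPM in shControl, 0.41 ± 0.068, adjusted p = 0.00017). GPC2, a glypican at 5.34 CPM in shSmurf1 and 6.11 CPM in shControl, did not pass (−0.20 ± 0.18, named after its values were seen). COL18A1, which encodes a basement membrane collagen with heparan sulfate chains, did not pass (0.11 ± 0.089). COL15A1, the gene of a related collagen, had few counts, 18 in shSmurf1 and 57 in shControl, in libraries that overlapped. It entered the test through its shControl libraries, was left out by the filter at a CPM of 1, which gave 5 lower core genes, and was named after its values were seen. The median of the tested genes of this list was −0.0733, against 0.00738 over all genes tested.

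Of 13 genes that start the sugar chains or supply them, 3 were higher, 2 lower and 8 did not pass, or 38.5% called against 22.5% of all genes tested. The 3 that were higher were XYLT2, a xylosyltransferase (158 ± 10.3 CPM in shSmurf1 and 130 ± 5.6 CPM in shControl, 0.28 ± 0.056), B3GALT6, a galactosyltransferase (0.34 ± 0.082), and B3GAT3, a glucuronyltransferase (0.59 ± 0.11). In the 18 other settings XYLT2 ran from 0.19 to 0.33, B3GALT6 from 0.22 to 0.43 and B3GAT3 from 0.46 to 0.72. B3GALT6 is also among the 41 neighbours of AGRN described above. The other enzymes that build the linkage did not pass, with B4GALT7, a galactosyltransferase, at 0.05 ± 0.072, XYLT1, the second xylosyltransferase, at 0.54 ± 0.33 and FAM20B, a xylose kinase, at −0.05 ± 0.058. Of the genes for sugar and sulfate donors, UGDH and PAPSS2 were lower (−0.26 ± 0.068 and −0.23 ± 0.061), while UXS1 and PAPSS1 did not pass (0.03 ± 0.088 and 0.02 ± 0.074). These 7 genes were named after their values were seen. SLC35B2, a carrier of the sulfate donor, did not pass (0.15 ± 0.058).

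Of 13 tested enzymes of chondroitin and dermatan sulfate, 2 were higher and 1 lower, and these 23.1% were near the 22.5% called among all genes tested. CHST11 and CHST12, sulfotransferases of chondroitin, were higher (0.33 ± 0.078 and 0.19 ± 0.067), CHPF2, a chondroitin polymerizing enzyme, was lower (−0.33 ± 0.065), and CHPF did not pass (−0.04 ± 0.068). Among 11 enzymes of heparan sulfate synthesis 2 were higher, GLCE, the epimerase (0.44 ± 0.074), and EXTL3 (0.24 ± 0.058), and EXTL2 was lower (−0.22 ± 0.077), so that 27.3% were called, near the 22.5% of all genes. NDST1, a sulfotransferase, did not pass (0.13 ± 0.048, edgeR adjusted p = 0.0575). These calls of CHST12 and EXTL2 lay near the threshold (adjusted p = 0.0441 and 0.0461) and were lost in 9 and 13 of 18 other settings.

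Of 8 keratan sulfate enzymes 2 were higher, or 25% called, near the 22.5% of all genes. They were CHST2 (0.54 ± 0.19, edgeR adjusted p = 0.0499), lost in 11 of 18 other settings, and CHST1. CHST1, a sulfotransferase of keratan sulfate, had 20 to 30 counts per shSmurf1 library and 2 to 6 per shControl library, a ratio of 5.70 with a counting interval of 3.43 to 10.0. Like LUM, it entered the test only through its shSmurf1 libraries, and it was named after its values were seen. B4GALT1 did not pass (0.10 ± 0.055). Among 16 genes that edit or break down the chains, 3 were higher and 0 lower, or 18.8% called against 22.5% of all genes, and the number higher ran from 1 to 5 in other settings. The 3 were SGSH, a lysosomal sulfamidase (0.32 ± 0.079), SULF1, which removes sulfate from heparan sulfate outside the cell (0.22 ± 0.066), and GLB1, a lysosomal galactosidase (0.21 ± 0.064). SULF1 lost its call in 4 and GLB1 in 3 of 18 other settings.

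Hyaluronan is the chain that versican binds, and of 8 tested hyaluronan genes 3 were lower and 1 higher, or 50% called against 22.5% of all genes. HAS2, a hyaluronan synthase, had 21.6 ± 3.94 CPM in shSmurf1 and 36.8 ± 1.71 CPM in shControl (log2 fold change −0.77 ± 0.10, edgeR adjusted p = 1.51e-05). HAS3, another synthase, was lower by less (−0.30 ± 0.093, a call lost in 4 of 18 other settings) and HAPLN3, a link protein, was higher (0.53 ± 0.12). HMMR was the remaining lower gene of the list (81.3 CPM in shSmurf1 and 97.4 CPM in shControl, −0.26 ± 0.0675, edgeR adjusted p = 0.00827, named after its values were seen). CEMIP2 did not pass (−0.07 ± 0.060). CD44, a hyaluronan receptor that was placed among the core proteins, was lower (517 CPM in shSmurf1 and 608 CPM in shControl, −0.23 ± 0.051, adjusted p = 0.0022, named after its values were seen).

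Of 13 tested proteases and sheddases 3 were higher and 3 lower, or 46.2% called against 22.5% of all genes. ADAMTS1, which cleaves versican, had 27.8 ± 5.58 CPM in shSmurf1 and 71.6 ± 3.36 CPM in shControl (log2 fold change −1.36 ± 0.099, edgeR adjusted p = 6.58e-09). ADAMTS5, which also cleaves versican, and PRSS12, which cleaves agrin, were lower (−0.44 ± 0.15 and −0.55 ± 0.19, adjusted p = 0.0384 and 0.0407), and lost the call in 11 and 10 of 18 other settings. The 3 that were higher were HTRA1 (0.29 ± 0.046), BMP1 (0.35 ± 0.066) and MMP2 (0.32 ± 0.080), with edgeR adjusted p = 0.000136, 0.000622 and 0.00565. They were named after their values were seen. MMP14, a membrane protease that sheds syndecan-1, did not pass (−0.07 ± 0.063). Of 14 genes listed as partners of syndecans and agrin, 4 were higher and 0 lower, and these 28.6% were near the 22.5% of all genes. LRP4, the agrin receptor, was higher (15.4 ± 2.01 CPM in shSmurf1 and 9.69 ± 0.934 CPM in shControl, 0.67 ± 0.12, adjusted p = 0.000253). NOTUM, which removes the lipid of Wnt proteins and was listed although its target is neither a syndecan nor agrin, was also higher (0.75 ± 0.13). LAMC1, a laminin chain, did not pass (−0.02 ± 0.044). MUSK, the kinase that agrin activates through LRP4, did not pass either (−0.04 ± 0.35, named after its values were seen). Without shSmurf1 replicate 3 the partners held 6 higher, the proteases 5 lower and the heparan sulfate enzymes 2 lower, while calls over all genes also went up, to 5348 of 15878 tested against 3527 of 15647 with all libraries.

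**Figure D5:**
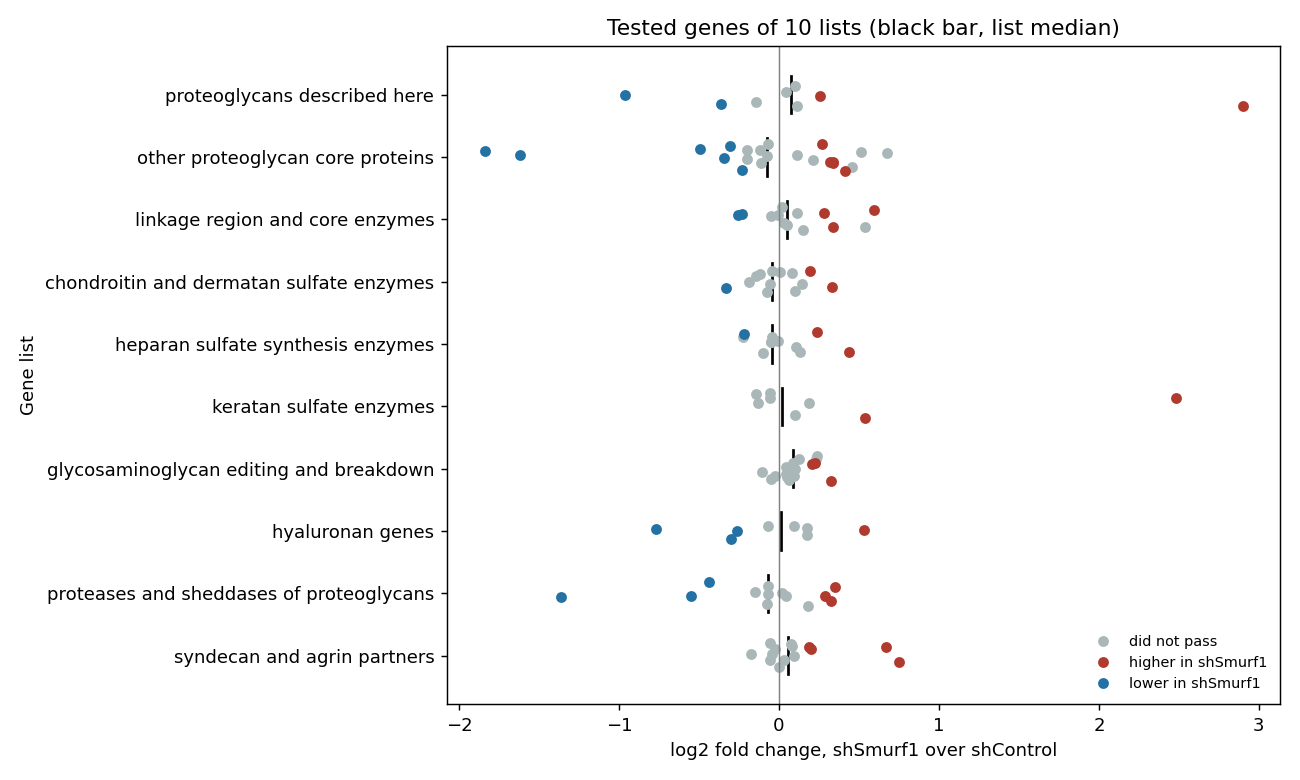
Log2 fold change of shSmurf1 over shControl (x axis) for every tested gene of the 10 lists (y axis), with 1 point per gene, coloured as higher, lower or not past the threshold, and a black bar at each list's median. The list medians lie between −0.0733 and 0.0904, with LUM and CHST1 far to the right and SMOC1, COL15A1 and ADAMTS1 to the left.

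Genes whose pattern over the 8 libraries was nearest to that of VCAN were SEMA3A, NFIB and CAV1, with root mean square differences of 0.0533, 0.0611 and 0.0733 in log2 CPM centred on each gene's mean. Their log2 fold changes were −1.01, −0.87 and −0.88. Nearest to AGRN were FBXO41, APBA3 and BAHCC1 (0.0414, 0.0466 and 0.0482), with log2 fold changes of 0.26, 0.31 and 0.29, of which APBA3 passed (edgeR adjusted p = 0.0329) and FBXO41 and BAHCC1 did not (0.0852 and 0.0519). Genes chosen for a like pattern have like fold changes by that choice. The search covered 11218 protein-coding genes.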

How the data were processed

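Counts per gene of 8 RNA-seq libraries were used. The authors deposited raw read counts, not normalized. The submitters' processing notes name featureCounts version 1.5.0-p3, HISAT2 version 2.0.5, fastp and CASAVA. Neither the genome build nor the strand setting is stated in the sources used here, so reads from genes that overlap on opposite strands cannot be told apart. Per the labels' protocols, polyadenylated RNA was primed with random hexamers. All 58735 identifiers were found in GENCODE release 29 (GRCh38), which gave symbols, positions, exon lengths and GC content.

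After filterByExpr (minimum count 10), 15647 genes remained, with TMM scaling of the libraries. Testing used the quasi-likelihood method of edgeR (version 4.0.16, run in R, version 4.3.3). The test was two-sided and compared shSmurf1 over shControl across all 8 libraries with no covariate, with p-values adjusted by Benjamini-Hochberg over all genes tested. Genes with an adjusted p under 0.05 were called. A standard error is the log2 fold change over the root of F. CPM uses the TMM-scaled total. Intervals and floors cover counting error only. The test was also run on simulated counts with planted changes, the outcome of which is not given here.

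The genes and lists were chosen with earlier results of these data known. Named from each list were up to 3 called genes with the largest change (average log2 CPM 1 or more) and the most highly expressed gene not called. Of the genes that this rule selects, 1 is not reported here. Nearest patterns were sought for the called genes with the highest and lowest change at that level, among protein-coding genes at 2 or more. Neighbours were the 25 genes on each side at an average log2 CPM of 1 or more. Other settings were RLE and no scaling, DESeq2 version 1.42.0, limma-voom (version 3.58.1), no filter, a CPM of 1 in 4 libraries, a replicate block, removal of each library's lowess trend of log2 CPM with GC content, and leaving out each library. Removing the GC trend with shSmurf1 replicate 3 left out, and neighbour medians in those fits, were added after seeing the data.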

Additional observations from a re-analysis of the deposited data

Results flagged for a closer look

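In shSmurf1, AGRN in replicate 3 stood apart at 275.5 CPM, against 399 to 416 CPM in the other 3 libraries, with a gap of 0.88 of the group's range. GPC1 stood apart in the same library, at 93.88 CPM against 130 to 135 CPM, with a gap of 0.87. Both gaps were above the 95% critical value of Dixon's test for 4 samples, 18 groups were looked at, and chance flags about 1 group in 20. The exons of AGRN and GPC1 hold 66.4% and 65% GC, and in that library genes with over 65% GC lay 0.247 under their mean on the log2 scale. With each library's GC trend removed, the SE of the AGRN log2 fold change was 0.042, against 0.091, and that of GPC1 0.043, against 0.086.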

How the results depend on the processing

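LUM, VCAN and SDC4 kept their direction and their call in all 18 other settings, with log2 fold changes from 2.69 to 3.46, from −1.01 to −0.91 and from −0.41 to −0.33. In the fits with a count filter, LUM entered only through its shSmurf1 libraries, so its repeated call there is weaker evidence than that of VCAN and SDC4. The number of proteoglycan genes called higher was 2, LUM and AGRN. It was 1 with DESeq2, 1 with limma-voom, 1 with the replicate number as a block, 1 with the GC trend removed and 1 with the GC trend removed and the block. Leaving out single libraries gave 1 to 5, with 5 only without shSmurf1 replicate 3, where BGN, SDC1 and GPC1 joined LUM and AGRN. The number called lower was 2, or 3 with HSPG2 once the GC trend was removed. Over all genes tested, 1611 were higher, and 1216 to 2601 when single libraries were left out, the highest without shSmurf1 replicate 3. With the block 1418 genes were higher and 1774 lower, and among the named proteoglycans it changed only the AGRN call. Same-numbered libraries of the groups deviated together with correlations of −0.0672 to 0.0321, so the numbers were not taken as pairs. In the lists, calls of proteases that were lower ranged from 1 to 5 and of heparan sulfate enzymes that were lower from 0 to 2, and with the block chondroitin sulfate enzymes held 1 higher, keratan sulfate enzymes 1 higher and proteases 1 lower. The causes were not tested. DCN could be fitted only with DESeq2 (log2 fold change −1.13, where DESeq2 gave no adjusted p) and in edgeR without a count filter (−1.09, edgeR adjusted p = 0.469). A difference in DCN was not detected at these depths, where the counting interval of its ratio ran from 0.195 to 1.02. The level of FMOD is bounded only from above.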

Other observations

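Genes of the lists that were too low to be tested also differed in counts, and those named here were chosen after their values were seen. TIMP3, a matrix-bound inhibitor of ADAMTS proteases, had 27 counts over the shSmurf1 libraries (3 to 11 each) and 1 over the shControl libraries, a ratio of 27.4 with a counting interval of 4.52 to 1123. With no filter on low counts it passed (edgeR adjusted p = 0.00179). BCAN, the gene of brevican, a brain member of the versican family, had 4 counts in shSmurf1 and 23 in shControl, a ratio of 0.177 with an interval of 0.0444 to 0.517, and did not pass in that fit (edgeR adjusted p = 0.0861). TNFAIP6, a hyaluronan-binding protein, had 20 counts in shSmurf1 (0 to 9 per library) and 4 in shControl, and did not pass (edgeR adjusted p = 0.143).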
